A study of Mus musculus with 31 samples.

Results

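The genes described here are the kinesin and dynein motor genes: the kinesin heavy chains, the kinesin light chains, the heavy, intermediate and light intermediate chains of the cytoplasmic dyneins, and the numbered dynactin subunits. They were chosen by gene symbol among the genes kept in the authors' normalized table. The symbols matched 56 of the 20784 genes in the authors' normalized table, and these 56 were followed by Ensembl identifier through the table of raw read counts. Another 5 kinesins with fitting symbols (Kif12, Kif28, Kif2b, Kif2c and Kif4) were present in the raw counts only, with 8 to 14 reads each over all cells, and were left out by the rule. The lowest of the 56, Kifc1, had 17 reads, so membership was not independent of expression.

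The 31 samples were single neurons of the olivocochlear system, the brainstem cells that send axons out to the inner ear and adjust hearing. The 18 cells labelled lateral olivocochlear (LOC) were patched in the lateral superior olive and the 13 labelled medial olivocochlear (MOC) in the ventral nucleus of the trapezoid body. All came from acute slices of mice carrying ChAT-IRES-Cre and tdTomato, a pairing in which cells that use the choline acetyltransferase gene make Cre and with it a red protein. Genotype is labelled as wild-type for all cells, and the labels name no age and do not tie cells to animals. RNA was taken by pulling cytoplasm into the recording pipette (patch-seq), so RNA of neighbouring cells can enter a library. No cell carried a treatment other than the recording.

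Kinesins and cytoplasmic dynein are the motors that carry cargo along microtubules. In axons, where microtubules point their plus ends outward, most transport kinesins move vesicles, mitochondria and cytoskeletal parts toward the terminals, and dynein with its activator dynactin moves cargo back toward the cell body. Other kinesins build cilia, trim microtubules or move chromosomes in the mitotic spindle, and the spindle motors are best known from dividing cells.

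Libraries held between 356412 and 2627174 counts on mouse genes, so that 3 counts, the most that a count of 0 can hide, equalled 1.14 to 8.42 in a single cell on the scale of counts per 1000000 (CPM). The median number of detected genes was 11481 per LOC cell and 13083 per MOC cell. The cholinergic markers Chat, Slc18a3 and Slc5a7 together gave fewer than 10 reads in 4 LOC and 5 MOC libraries and none in LOC 14, LOC 16 and MOC 8, so that the labelled cell type had little support from its own markers there. The 7 neuronal markers together reached at least 1710 CPM in LOC against 2595 CPM in MOC libraries. Markers of oligodendrocytes ran from 21.3 to 238100 CPM in LOC and from 360 to 122100 CPM in MOC, and their part in the values was tested only by leaving out the libraries richest in them. Microglial markers had a median of 147 CPM in LOC and 529 CPM in MOC, up to 7702 CPM in MOC 8, which also had the highest inhibitory markers (2990 CPM). Cholinergic markers had a median of 416 CPM in LOC and 10.97 CPM in MOC. MOC 2 and MOC 4 stood apart in the motors: of the 16 motor genes over 100 CPM in both groups, 6 were under 10 CPM in each of these libraries, whereas every other library had at most 3. Because no animal is named, each group counts as 1 sample, no test between LOC and MOC was possible, and all SDs are over cells.

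The motors come in families of close relatives, so the reads must be able to tell relatives apart. The longest exact stretch shared by the coding sequences of each pair stands in capitals in the lines that follow, with 20 bases on either side in lower case, from the GENCODE M21 transcripts of the mouse build GRCm38. The pairs hold the 3 genes past the rule of size that is defined with Klc4, each with a relative, and 2 abundant pairs of heavy chains.

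Kif5a, coding bases 2480 to 2542: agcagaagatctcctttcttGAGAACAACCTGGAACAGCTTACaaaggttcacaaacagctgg

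Kif5c, coding bases 2489 to 2551: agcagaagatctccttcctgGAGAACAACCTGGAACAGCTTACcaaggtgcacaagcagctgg

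Kif1a, coding bases 4874 to 4946: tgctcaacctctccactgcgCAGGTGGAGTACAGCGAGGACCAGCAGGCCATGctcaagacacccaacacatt

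Kif1b, coding bases 5231 to 5303: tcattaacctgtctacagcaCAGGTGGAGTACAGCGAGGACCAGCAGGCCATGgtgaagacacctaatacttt

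Klc1, coding bases 668 to 733: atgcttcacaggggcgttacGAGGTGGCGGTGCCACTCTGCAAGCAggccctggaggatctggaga

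Klc4, coding bases 662 to 727: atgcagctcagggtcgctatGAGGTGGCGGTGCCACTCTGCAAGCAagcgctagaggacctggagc

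Dync1i1, coding bases 977 to 1033: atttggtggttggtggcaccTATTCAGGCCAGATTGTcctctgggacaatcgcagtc

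Dync1i2, coding bases 959 to 1015: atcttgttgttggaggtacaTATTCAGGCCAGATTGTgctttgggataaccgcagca

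Kif19a, coding bases 809 to 874: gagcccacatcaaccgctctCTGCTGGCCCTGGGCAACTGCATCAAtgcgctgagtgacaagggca

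Kif19b, coding bases 887 to 952: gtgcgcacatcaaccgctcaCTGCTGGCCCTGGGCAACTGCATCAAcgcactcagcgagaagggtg

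The shared run was 23 bases for Kif5a and Kif5c, 33 for Kif1a and Kif1b, 26 for Klc1 and Klc4, 17 for Dync1i1 and Dync1i2, and 26 for Kif19a and Kif19b. Each is shorter than the 75-base reads. Of the 56 genes, 40 had no 75-base window of their longest coding transcript in common with a transcript of any other gene, and these 40 include all 10 genes printed above. In 10 genes over 5% of windows were shared. The share was 42.8% in Kif3c, 34.6% in Kifc1 (with its relative Kifc5b), 29.3% in Kif20a (with Cdc23) and 22.1% in Kif2a (with Dimt1). The library kit keeps no strand, so values of these 10 genes may include reads of other genes and are uncertain. The windows cover only 1 transcript per gene. Annotated exons of further genes, including Klc1 (Xrcc3), Kifc2 (Cyhr1) and Kif17 (Sh2d5), also overlap those of the gene in brackets, so shared reads are possible there too.

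The 56 genes gathered 122426 counts. All 56 were measured, meaning that 25% or more of either group's cells had a read. Kinesins with few reads that the normalized table lacks do not enter this count. Of these, 12 had a read in all 31 cells and 26 in at least 25 cells. Over all 17754 measured genes 5.8% had a read in all 31 cells, a share not matched for level. With every library thinned to 350000 counts, the figures were 9 and 22. A single LOC cell held reads of 27 to 50 motor genes (median 39.5) and a single MOC cell of 30 to 55 (median 42). Summed over the 56 genes, the motors took 2202 to 5923 CPM per LOC cell (median 3960) and 3117 to 7376 CPM per MOC cell (median 4570), and the ranges overlapped widely.

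**Figure D1:**
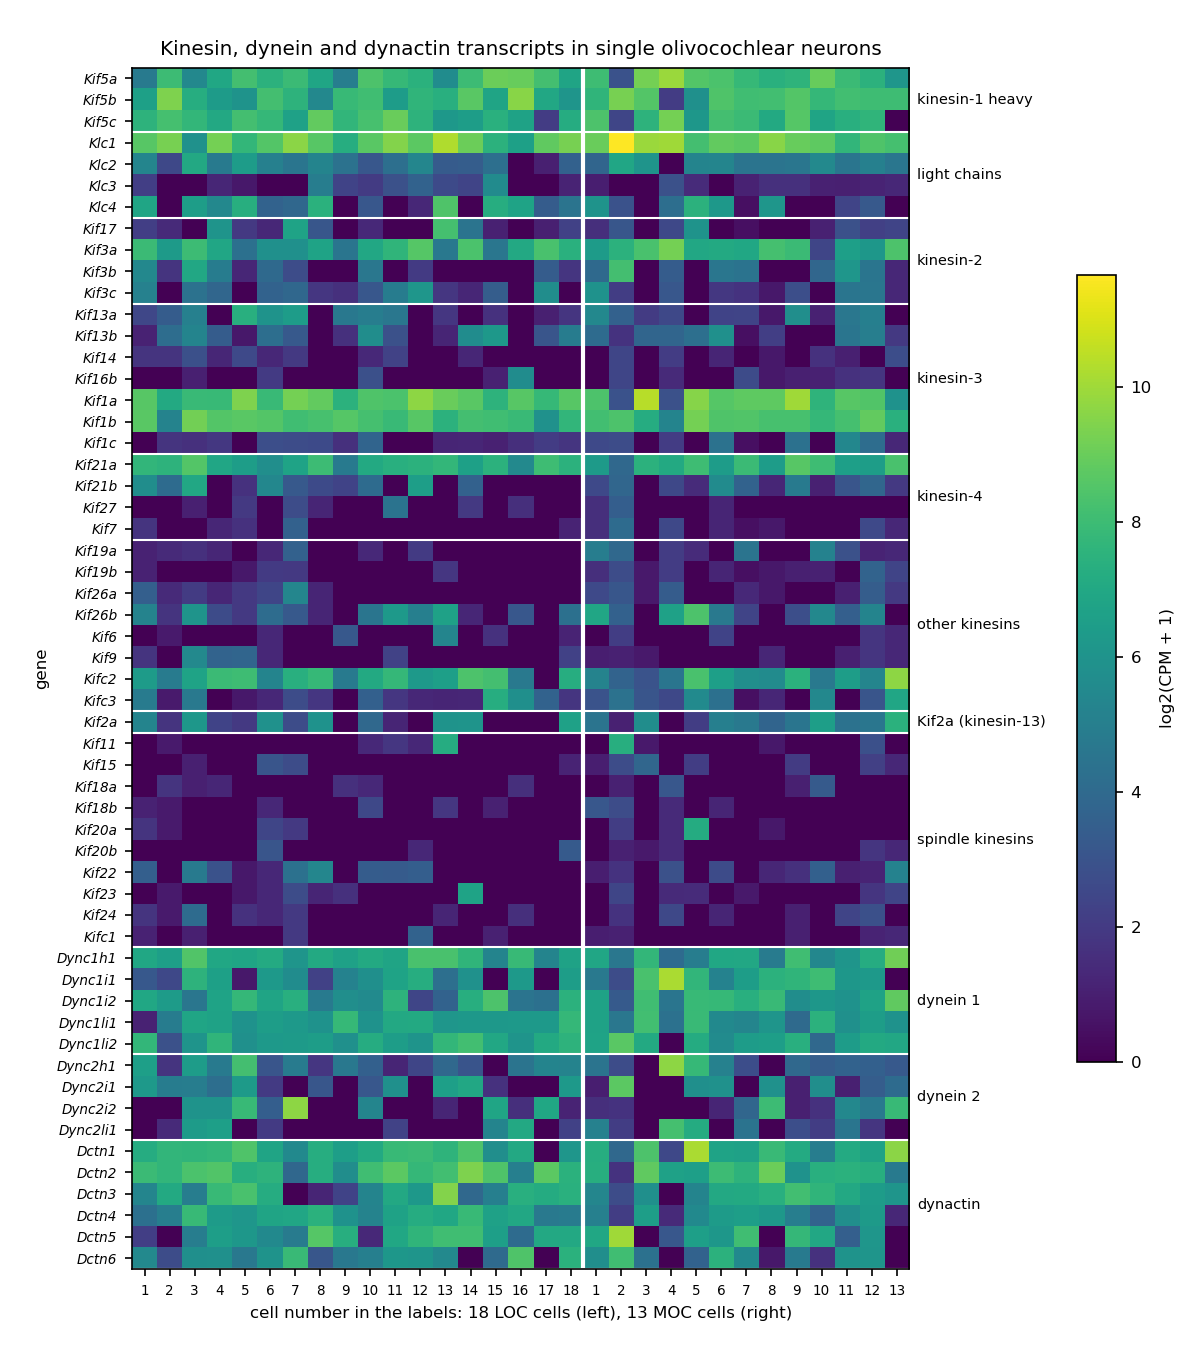
Level of each of the 56 motor genes (rows, grouped by role) in each of the 31 cells (columns, by the number in the labels), as log2(CPM + 1). Kif1a, Kif1b, Klc1, Kif3a, Kif21a and the Kif5 genes are bright in nearly every column, the spindle kinesins are dark apart from single cells, and MOC 2 and MOC 4 show dark gaps in the bright rows.

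The heavy chains of kinesin-1, the motor of fast outward axonal transport, were present throughout. Kif5a, the neuronal heavy chain, ranged from 26.7 to 520 CPM in LOC cells (median 199) and from 6.69 to 959 CPM in MOC cells (median 243). Kif5b, the form made in most tissues, ranged from 42.2 to 766 CPM (median 158) in LOC and from 3.21 to 617 CPM (median 273) in MOC. Kif5c, the other neuronal form, ranged from 3.16 to 508 CPM (median 187) in LOC and from 0 to 593 CPM (median 186) in MOC. Kif5a and Kif5b had reads in all 31 cells and Kif5c in 30, being absent in MOC 13. Summed over cells, Kif5a stood at 211 CPM (95% Poisson interval 203 to 219) in LOC and 294 (285 to 304) in MOC, and the mean difference of log2(CPM + 1), LOC minus MOC, was -0.44. These intervals cover counting error only, since reads amplified by PCR without molecular identifiers are not independent molecules.

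Per kb of merged exons the 3 heavy chains shared the family almost evenly in LOC and less evenly in MOC. Kif5a, Kif5b and Kif5c held 34.6%, 31% and 34.4% of the reads per kb in LOC and 39.3%, 33.4% and 27.3% in MOC. Scaled by the median length of coding transcripts instead, the shares were 38.0%, 33.1% and 28.9% in LOC and 42.3%, 35.1% and 22.6% in MOC. The evenness in LOC therefore depends on the length used. Single cells did not show these group shares. The share of Kif5a ran from 7.1% to 71.9% over LOC cells and from 1.2% to 75.5% over MOC cells, and Kif5b held 98.0% in MOC 2 but 0.2% in MOC 4. In LOC, Kif5a was the highest of the 3 per kb of merged exons in 5 cells, Kif5b in 6 and Kif5c in 7. In MOC the counts were 5, 6 and 2.

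The kinesin light chains link kinesin-1 to cargo, and among them Klc1 prevailed. Klc1 was the motor gene with the highest summed level, 448 CPM in LOC against 709 CPM in MOC. It ranged from 59.6 to 1240 CPM in LOC cells (median 416) and from 202 to 3241 CPM in MOC cells (median 466). The groups overlapped, and the highest value, in MOC 2, made up 30.0% of the Klc1 reads of MOC. Without MOC 2 and MOC 4 the MOC level was 505 CPM. Relative to Klc2, Klc1 held 93.4% of reads per kb in LOC and 95.4% in MOC, and was the higher of the pair in 17 of 18 LOC cells and in all 13 MOC cells. Klc2 itself was at 32.3 and 34.6 CPM. Klc3 was low, at 6.87 CPM in LOC against 1.32 CPM in MOC, and 45.9% of its LOC reads came from LOC 15.

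Klc4 was the only motor gene past the size rule toward LOC. The rule asks for a summed level 2 or more times the other group's, a mean of log2(CPM + 1) higher by 1 or more and detection in 25% or more of the higher group's cells. Of the 17754 measured genes, 6.07% passed it toward LOC and 5.67% toward MOC. The counts among the motors were 1 and 2 of 56. Counts this small cannot be told from that background, and no set test was made. In libraries thinned to 350000 counts they were 1 and 4, where 7.72% and 7.15% of all measured genes passed. Klc4 lies on the minus strand of chromosome 17 at 46630624 to 46646022 (GRCm38). Its value in LOC cells was 345 CPM in LOC 13, 174 in LOC 8, 158 in LOC 5, 154 in LOC 15, 115 in LOC 1, 108 in LOC 16, 89.96 in LOC 3 and 42.0 in LOC 4, between 1.46 and 21.5 in 6 further cells, and 0 in LOC 2, 9, 11 and 14. In MOC cells it was 181 CPM in MOC 5, 72.4 in MOC 6, 69.0 in MOC 8, 62.0 in MOC 1 and 17.7 in MOC 4, between 0.38 and 8.54 in 4 further cells, and 0 in MOC 3, 9, 10 and 13.

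Klc4 thus ran from high levels to 0 within each group, and only LOC 13 exceeded the highest MOC cell. Summed levels were 76.0 CPM (95% Poisson interval 71.5 to 80.6) in LOC and 26.0 (23.3 to 28.8) in MOC, and the gene was detected in 14 of 18 LOC cells (77.8%, with an exact 95% interval of 52.4% to 93.6%) and 9 of 13 MOC cells (69.2%, 38.6% to 90.9%). The means of log2(CPM + 1) were 4.22 ± 2.96 (SD, n = 18 cells) and 3.01 ± 2.79 (SD, n = 13 cells), a difference of 1.21, smaller than either SD. The difference dropped under 1 without LOC 13 (0.97) and without any of MOC 3, 9, 10 or 13 (0.96 each), and was 0.73 with a pseudocount of 10 CPM. In libraries thinned to 350000 counts it was 1.07 and Klc4 no longer met the rule.

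Kinesin-2 is the motor of cilia and of some axonal cargo, built from Kif3a with a Kif3b or Kif3c partner and the adaptor Kifap3, while Kif17 works as a pair of itself. Kif3a had reads in all 31 cells, from 18.5 to 379 CPM in LOC (median 123) and from 4.41 to 593 CPM in MOC (median 133). Kifap3, which is not among the 56, was at 132 CPM in LOC against 191 CPM in MOC. The partners were far scarcer. Kif3b was read in 11 LOC and 9 MOC cells and Kif3c, whose reads are the least distinct of the 56, in 14 LOC and 10 MOC cells. Of the 31 cells, 16 had both partners, 4 Kif3b alone, 8 Kif3c alone and 3 neither, and in these 3 a level under the depth limit cannot be told from absence.

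Kif3b was at 15.6 CPM in LOC against 32.8 CPM in MOC, and its mean difference was -0.94, just short of the rule. In MOC cells its values were 289 CPM in MOC 2, 67.9 in MOC 11, 22.8 in MOC 6, 21.95 in MOC 12, 20.9 in MOC 7, 14.8 in MOC 1, 13.2 in MOC 10, 9.64 in MOC 4 and 1.44 in MOC 13, and 0 in the other 4. In LOC cells the highest were 124 CPM in LOC 3, 42.9 in LOC 1 and 28.5 in LOC 4, and 7 cells had none. MOC 2 supplied 57.9% of the MOC reads. Without MOC 2 and MOC 4 the levels were 15.57 and 15.02 CPM and the difference -0.46. Kif3b met the rule toward MOC with TMM library sizes (-1.01), with the authors' deposited normalized values (-1.02), on medians over cells (-2.04), on summed levels (-1.07) and in libraries with at least 10 cholinergic reads (-1.31). Kif17 was at 24.6 CPM in LOC against 4.62 CPM in MOC, but 64.7% of its LOC reads came from LOC 13 and the mean difference was 0.57.

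Kinesin-3 carries synaptic vesicle precursors and dense core vesicles, and its neuronal members Kif1a and Kif1b ranked beside Klc1. Kif1a was at 372 CPM (95% Poisson interval 362 to 382) in LOC and 482 (470 to 494) in MOC. It was the steadiest motor of LOC cells, from 137 to 823 CPM (median 373) with a mean of 8.40 ± 0.70 (SD, n = 18 cells) on the log2(CPM + 1) scale. In MOC it ran from 6.43 CPM in MOC 4 and 6.69 in MOC 2 to 1375 in MOC 3 (median 379), with a mean of 7.77 ± 2.41 (SD, n = 13 cells). The mean difference of 0.63 was -0.25 without MOC 2 and MOC 4, so its sign rested on these libraries. Low Kif1a was among the values that set these libraries apart, so a higher MOC mean without them was fixed in advance. Kif1b stood at 291 and 300 CPM, ranged from 36.7 to 580 CPM in LOC and from 37.0 to 592 CPM in MOC, and differed by -0.01.

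Kif1a held 70.7% of the reads per kb of the pair in LOC and 75.2% in MOC, and was the higher in 16 of 18 LOC cells and 10 of 13 MOC cells. The exceptions were MOC 2, where Kif1b held 96.4%, together with MOC 4, MOC 13, LOC 3 and LOC 9. These values use merged exons, which are longer in Kif1b (17.61 kb) than in Kif1a (9.33 kb). Scaled by the median coding transcript instead, Kif1a held 60.1% in LOC and 65.4% in MOC. By raw reads Kif1b also exceeded Kif1a in LOC 1, 4, 6 and 15 and MOC 10 and 12. How many cells favour Kif1a therefore depends on the length used. The other kinesin-3 genes were low: Kif13a was at 28.5 CPM in LOC and 12.98 in MOC, Kif13b at 17.8 and 11.1, and Kif1c, Kif14 and Kif16b at no more than 7.41 CPM in either group.

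**Figure D2:**
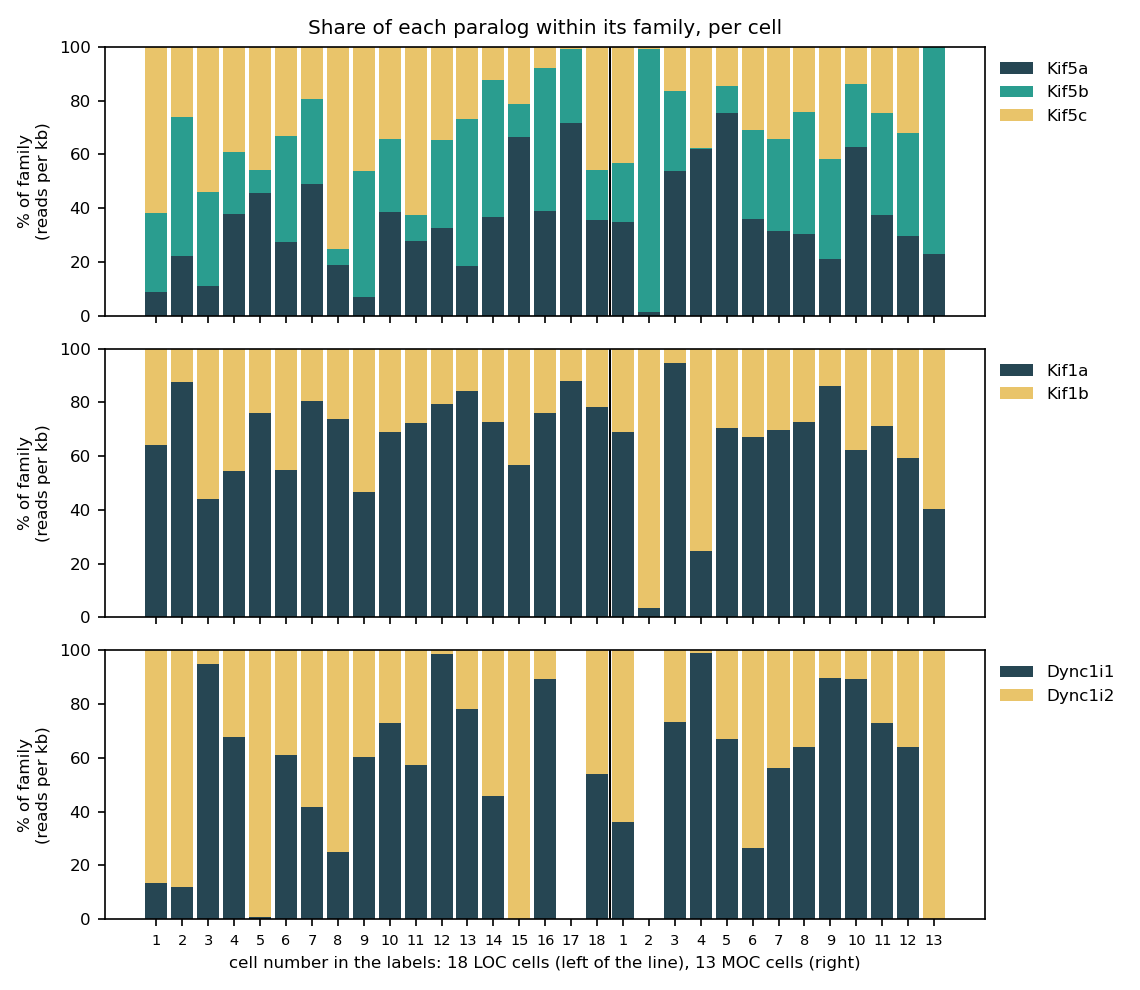
Share of each gene within 3 families (Kif5, Kif1a with Kif1b, Dync1i1 with Dync1i2), in percent of the family's reads per kb of exon, for each of the 31 cells with at least 20 reads of the family. The Kif5 bars change from cell to cell while Kif1a is the larger share in 16 LOC and 10 MOC cells, and MOC 2 shows almost only Kif5b and Kif1b.

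Among kinesin-4 genes, Kif21a, which tempers microtubule growth and is known for a human eye movement disorder of cranial nerve axons, varied about as little as Kif1b in LOC cells and more than Kif1b in MOC cells. It was at 168 CPM in LOC against 178 CPM in MOC, with ranges of 26.4 to 367 CPM (median 171) and 14.5 to 399 CPM (median 137). The means on the log2(CPM + 1) scale were 7.06 ± 0.96 (SD, n = 18 cells) and 7.07 ± 1.24 (SD, n = 13 cells). Its relative Kif21b was at 21.4 and 10.1 CPM, with 39.3% of the LOC reads in LOC 3. Kif7 and Kif27, relatives linked to cilia, stayed under 2 CPM in both groups.

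Kif2a, a kinesin-13 that takes microtubules apart and limits collateral branches of axons, was at 26.9 CPM in LOC against 34.3 CPM in MOC, detected in 13 of 18 and in 12 of 13 cells. The mean difference of -1.09 came with a ratio of 1.27, so the rule was not met. Kifc2, a minus-end kinesin abundant in neurons, was at 144 CPM in LOC (0 to 335, median 120) and 105 CPM in MOC (6.79 to 829, median 49.0), with 40.3% of the MOC reads in MOC 13. Kifc3 was at 17.5 and 15.4 CPM.

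Kif19a, which trims microtubules at the tips of motile cilia, was past the size rule toward MOC but low. The gene lies on the plus strand of chromosome 11 at 114765388 to 114790739 (GRCm38). It was detected in 8 of 18 LOC cells (44.4%, with an exact 95% interval of 21.5% to 69.2%) and 9 of 13 MOC cells (69.2%, 38.6% to 90.9%), but no LOC cell and 5 MOC cells had 5 reads or more. LOC values were at most 11.2 CPM, in LOC 7, and 10 cells were at 0. MOC values were 35.3 CPM in MOC 10, 29.5 in MOC 1, 21.7 in MOC 7, 14.5 in MOC 2, 6.37 in MOC 11 and 3.21 in MOC 4, between 1.22 and 1.67 in MOC 5, 12 and 13, and 0 in the other 4 cells. Summed levels were 0.98 CPM (95% Poisson interval 0.54 to 1.65) and 10.5 CPM (8.84 to 12.4), and the difference was -1.35, with means of 0.76 ± 1.02 (SD, n = 18 cells) and 2.11 ± 1.98 (SD, n = 13 cells). It was -0.53 with a pseudocount of 10 CPM.

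Markers of ependymal or ciliated cells (Foxj1, Rsph1, Tmem212, Ccdc153 and Dynlrb2) were high beside Kif19a in some cells and without it in others. Their summed level ran from 0 to 32.5 CPM in LOC (median 0.58), with a read in 9 of 18 cells. In MOC it ran from 0 to 94.9 CPM (median 5.36), with a read in 11 of 13 cells. MOC 7 and MOC 10 had 90 and 86 of these reads beside their Kif19a, mostly from Tmem212 (60) in MOC 7 and Rsph1 (70) in MOC 10. By contrast MOC 1 and MOC 2, with Kif19a, had 1 and 3. MOC 9 and MOC 8 had 45 and 24 with 0 reads of Kif19a, and LOC 6 had 22 with 1 read of Kif19a. Foxj1, the defining factor, had 0 reads in MOC 7 and 1 in MOC 10. It was highest in MOC 12 (10 reads), MOC 11 (5), MOC 6 (4) and LOC 4 (4), where Kif19a had 1, 6, 0 and 1 reads. The part of such RNA in the difference was not tested. The paralog Kif19b was at 0.49 and 2.05 CPM, with a read in 5 LOC and 11 MOC cells and a difference of -0.95.

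The 10 kinesins of the mitotic spindle summed to 27.0 CPM in LOC against 28.9 CPM in MOC, and their reads came in bursts from single cells. LOC 13 supplied 95.9% of the LOC reads of Kif11, the spindle-spreading motor, at 150 CPM, and MOC 2 supplied 95.3% of its MOC reads at 160 CPM. MOC 5 held 94.4% of the MOC reads of Kif20a at 142 CPM, and LOC 14 held 91.5% of the LOC reads of Kif23 at 106 CPM. The 10 listed markers of dividing cells went with some of these bursts and not with others. Their sum was highest in LOC 14 among LOC cells (220 CPM) and in MOC 2 among MOC cells (143 CPM). LOC 14 had 153 reads of the cyclin Ccnb1 but 1 each of Ccna2 and Plk1 and none of the other 7 markers. MOC 2 had 101 reads of Cdk1, 9 of Ccna2, 8 of Mki67 and 1 to 3 each of Top2a, Ccnb1, Aurka, Plk1 and Birc5. By contrast LOC 13 had 1 read in all, and MOC 5 had none. Kif22 was more evenly spread, with reads in 10 cells of each group and 6.94 and 3.74 CPM. Unlike the bursts, none of the 16 LOC and 17 MOC genes above 100 CPM had over 50% of its reads in 1 cell, the highest share being 27.3% and 40.3%.

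Of the cytoplasmic dynein-1 chains, the heavy chain Dync1h1, which holds the motor, was at 149 CPM in LOC (36.9 to 357, median 121) and 131 CPM in MOC (16.1 to 553, median 120). The light intermediate chains Dync1li1 and Dync1li2, which bind cargo adaptors, were at 86.8 and 115 CPM in LOC and at 90.1 and 117 CPM in MOC. Per kb Dync1li1 held 53.9% of that pair in LOC and 54.5% in MOC. Neither chain differed in its mean by more than 0.41. The mean of Dync1h1 differed by 0.62 and that of the intermediate chain Dync1i2 by -0.67, both less than their SDs.

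Dync1i1, the intermediate chain enriched in neurons, was past the size rule toward MOC. It lies on the plus strand of chromosome 6 at 5725639 to 6028039 (GRCm38). In MOC cells its values were 1152 CPM in MOC 4, 318 in MOC 3, 259 in MOC 10, 204 in MOC 5, 198 in MOC 9, 181 in MOC 8, 89.8 in MOC 7, 79.3 in MOC 12, 71.1 in MOC 11, 34.9 in MOC 6, 25.6 in MOC 1, 5.58 in MOC 2 and 0 in MOC 13. In LOC cells they ran from 0 in LOC 15 and LOC 17 to 151 in LOC 12 and 185 in LOC 3, with a median of 52.7 against 89.8 in MOC. So 5 MOC cells lay above every LOC cell, and the remaining 8 lay within the LOC range.

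Summed Dync1i1 levels were 51.8 CPM (95% Poisson interval 48.2 to 55.7) in LOC and 175 (168 to 182) in MOC, a ratio of 3.37. The means of log2(CPM + 1) were 4.60 ± 2.51 (SD, n = 18 cells) and 6.23 ± 2.64 (SD, n = 13 cells), a difference of -1.63 that is smaller than either SD. MOC 4 held 30.1% of the MOC reads, and without MOC 2 and MOC 4 the MOC level was 137 CPM and the difference -1.59. Leaving out each cell in turn moved the difference between -2.15 and -1.30. The difference of medians was -0.76, which does not meet the rule. Without the libraries in which oligodendrocyte markers exceeded 10% of counts (4 LOC and 2 MOC) it was -0.99 and the rule was no longer met.

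The paralog Dync1i2, made in most tissues, was at 110 CPM in LOC (4.39 to 343, median 95.7) and 157 CPM in MOC (8.93 to 452, median 104), with a difference of -0.67. Dync1i1 held 52.1% of the reads per kb of the pair in LOC and 72.1% in MOC. With the median length of coding transcripts in place of the merged exons, the shares were 31.3% and 51.9%, because the merged exons of Dync1i2 are long (8.28 kb against 3.57 kb). Without MOC 2 and MOC 4 the MOC share was 64.5%. Per kb of merged exons, Dync1i1 was the higher of the pair in 10 of 17 LOC cells and 9 of 12 MOC cells with at least 20 reads of the pair. The share ran from 0% to 98.8% and from 0% to 99.2%. By raw reads the median share of Dync1i1 over these cells was 36.6% in LOC and 45.1% in MOC. How many cells favour Dync1i1 therefore depends on the length used.

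**Figure D3:**
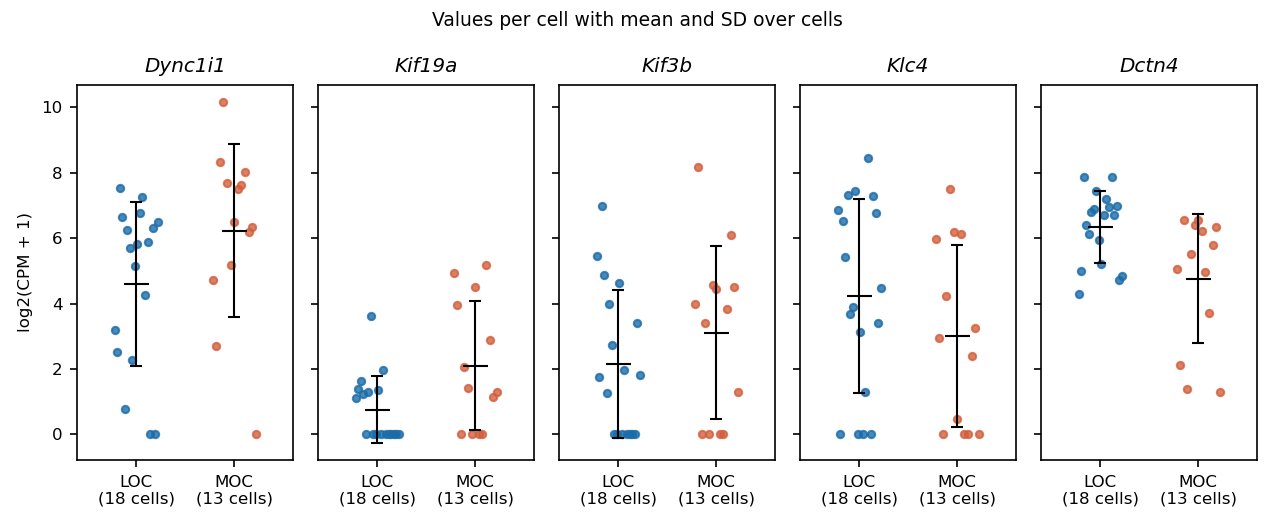
Level per cell of 5 motor genes as log2(CPM + 1), each point a cell (18 LOC in blue, 13 MOC in orange), with the mean and SD over cells as bar and whiskers. The groups overlap for every gene: 5 MOC cells lie above all LOC cells for Dync1i1 and 10 LOC cells above all MOC cells for Dctn4, and Klc4, Kif3b and Kif19a have cells at 0 in both groups.

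Cytoplasmic dynein-2 drives transport back down the cilium. Its 4 chains summed to 176 CPM in both groups, with a read in all 18 LOC and 12 of 13 MOC cells (medians 127 and 77.5 CPM). Single chains often had most of a group's reads in 1 cell. Dync2i1, at 37.9 and 44.7 CPM, had 20.9% of its LOC reads in LOC 5 and 61.8% of its MOC reads in MOC 2. Dync2h1, the heavy chain, was at 50.7 and 55.9 CPM, with 56.2% of the LOC reads in LOC 5 and 67.2% of the MOC reads in MOC 4. Dync2i2 was at 68.7 and 46.8 CPM, with a difference of 0.26, and reached 811 CPM in LOC 7. MOC 8 held 58.2% of its MOC reads, and without that cell the MOC level was 21.9 CPM. Dync2i2 met the rule toward LOC in libraries with at least 10 cholinergic reads (56.5 and 9.05 CPM, difference 1.27) and without the 3 libraries richest in microglial markers (1.09). Dync2li1, the light intermediate chain, was at 18.4 CPM in LOC against 28.9 CPM in MOC, with detection in 8 of 18 and 9 of 13 cells and a difference of -1.10 at a ratio of 1.57. Without MOC 2 and MOC 4 that difference was -0.70.

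Dynactin, the complex that joins dynein to cargo, was read in nearly every cell and summed to 843 CPM in LOC against 809 CPM in MOC. Dctn2 (dynamitin), which belongs to its shoulder, was at 262 and 208 CPM, and Dctn1, the arm that grips dynein and microtubules, at 173 and 215 CPM. Per kb the small subunit Dctn3 was highest of the 56 in LOC, at 139 CPM per kb against 110 for Klc1, and Klc1 was highest in MOC, at 174 against 107 for Dctn3. In single cells Dctn3 was the highest of the 56 genes per kb in 7 LOC and 5 MOC cells and Klc1 in 4 LOC and 5 MOC cells. Dctn3 itself ran from 0 to 714 CPM in LOC and from 0 to 276 CPM in MOC and differed by -0.10.

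Dctn4, a subunit of the pointed end of dynactin, had the widest mean difference of the 56 genes toward LOC. It ranged from 18.6 to 233 CPM in LOC (median 104) and from 1.44 to 92.8 CPM in MOC (median 45.2). It was read in all 31 cells, and 10 of 18 LOC cells lay above the highest MOC cell. Means of log2(CPM + 1) were 6.33 ± 1.10 (SD, n = 18 cells) and 4.76 ± 1.98 (SD, n = 13 cells), a difference of 1.57. The summed levels of 97.1 CPM (95% Poisson interval 92.0 to 102) and 55.5 CPM (51.6 to 59.6) gave a ratio of 1.75, so the size rule was not met. Without MOC 2 and MOC 4, at 3.35 and 1.61 CPM, the difference was 1.02. In libraries with at least 10 cholinergic reads it was 0.95, and without those rich in oligodendrocyte markers it was 2.13 and the rule was met, as it was in libraries thinned to 350000 counts (1.74).

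The other pointed-end subunits did not follow Dctn4 closely. Dctn6 was at 56.5 and 53.3 CPM with a difference of 0.77. Dctn5 was at 110 and 166 CPM with a difference of 0.69, so that its sum and its mean pointed in opposite directions. MOC 2, at 1012 CPM, held 40.1% of its MOC reads, and 3 MOC cells had none.

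Across the 56 genes the median difference, LOC minus MOC, was -0.03, against -0.07 over all measured genes. The difference was above 0 for 26 genes (46.4%, against 45.7% of all measured genes) and below 0 for 30. For every one of the 56 the ranges of the 2 groups overlapped. Overlap was not counted over all genes, so it cannot be read as a trait of the motors. The median was 0.05 without MOC 2 and MOC 4.

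**Figure D4:**
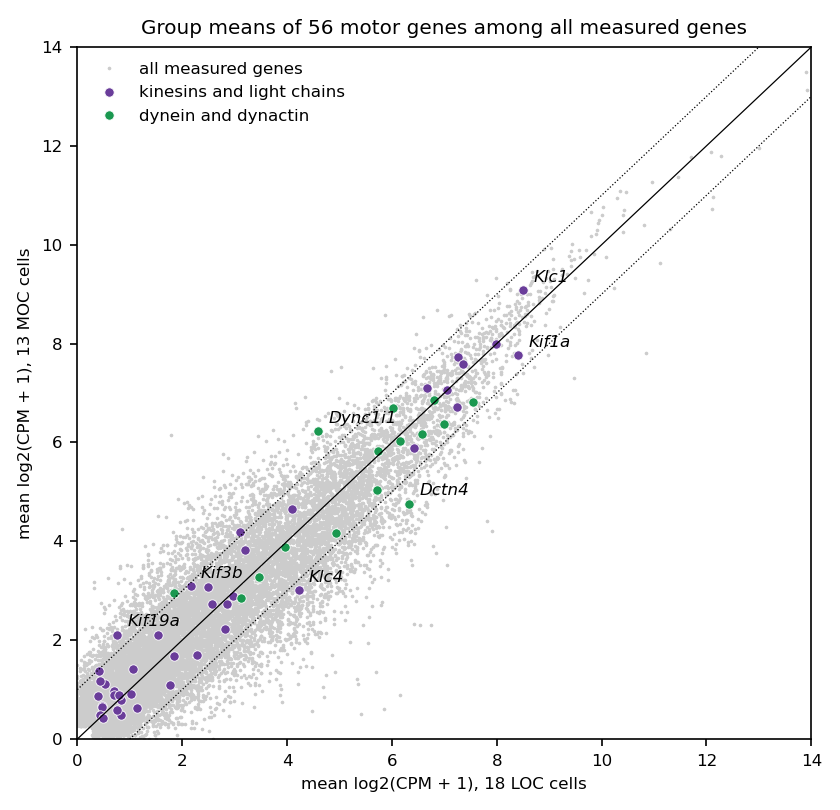
Mean log2(CPM + 1) over 18 LOC cells (horizontal) against 13 MOC cells (vertical) for the 56 motor genes (purple and green) and all 17754 measured genes (grey). The solid line marks equal means and the dotted lines a difference of 1; 50 of the motors lie between the dotted lines, Dync1i1, Kif19a, Dync2li1 and Kif2a lie above the upper, and Klc4 and Dctn4 lie below the lower.

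Genes that work with these motors were listed by role, outside the symbol rule. Their counts are read against the 6.07% of all measured genes past the rule toward LOC and the 5.67% toward MOC. No list was tested against these shares. Of 20 adaptors and regulators of kinesins, 2 passed the size rule toward LOC and none toward MOC: Trak2, which ties mitochondria to motors, at 211 CPM in LOC against 103 CPM in MOC, and Madd, an adaptor of Kif1 motors, at 92.5 and 45.3 CPM. Of 18 regulators and adaptors of dynein, 3 passed toward LOC. These were Htt (huntingtin), at 67.8 and 22.7 CPM with reads in all 18 LOC and 11 of 13 MOC cells, its partner Hap1 at 105 and 26.8 CPM, and Hook2 at 23.3 and 1.91 CPM. Bicd2, an adaptor that activates dynein, passed toward MOC at 22.4 and 70.6 CPM, with 53.6% of the MOC reads in MOC 3. Of 9 dynein light chains, Dynlt3 passed toward MOC at 74.3 and 155 CPM, and of 6 further dynactin parts, the actin-capping subunit Capza1 did at 27.1 and 66.7 CPM.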

How the data were processed

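The authors deposited raw read counts per gene for 31 single-cell libraries (18 LOC, 13 MOC) and a table of normalized signal values, which its file name calls CPM with TMM adjustment. Per the submitters' processing notes, bcl2fastq, STAR 2.5.2, DESeq2, edgeR and limma were used with the builds GRCm38 and mm10; no counting tool or treatment of shared reads is named (not given in the sources used here). Libraries were made without strand.

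From the counts, CPM was computed on the total over 55421 mouse genes (19 rows of added sequences, 0.0173% of counts, were left out). Group sums carry exact 95% Poisson intervals, shares of cells or of paralog counts exact Clopper-Pearson intervals, and means and SDs are of log2(CPM + 1), which understates differences of low genes. Levels per kb use the merged exons of GENCODE M21. Windows of 75 bases from the longest coding transcript were compared with all transcripts. Named are genes past the size rule, the 2 highest per kb in each role list and the 3 widest differences per direction with reads in at least 50% of the cells of the higher group; Klc2, Klc3, Kif3c, Kif17, Kif19b and other genes outside that rule were named after their values were seen. Genes, lists and the size rule were chosen with earlier results of these data known. Alternatives were another scaling (TMM sizes with edgeR 4.0.16), pseudocount, read filter, thinning and sets of libraries; leaving out MOC 2 and MOC 4 and the transcript length were chosen after seeing the data. Tables were handled with Python 3.11.15, numpy 2.4.6, pandas 2.3.3 and scipy 1.17.1.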

Additional observations from a re-analysis of the deposited data

How the results depend on the processing

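The count of motor genes past the size rule toward LOC, 1 as reported, was 10 on summed levels alone (where 20.5% of all genes passed), 0 with a pseudocount of 10 CPM (2.08%), 3 in libraries with at least 10 cholinergic reads (8.47%), 2 when the 3 libraries richest in microglial markers were dropped (7.45%) and 2 without those over 10% oligodendrocyte markers (9.28%). Leaving out single cells gave 0 to 2; it was 0 without LOC 13 or MOC 3, 9, 10 or 13, and 2 without MOC 7. Toward MOC the count of 2 became 8 on summed levels (20.5%), 1 with a pseudocount of 10 CPM (1.18%), 4 with TMM library sizes (6.94%), 4 after thinning (7.15%) and 1 without the libraries rich in oligodendrocyte markers (5.16%), and 2 to 4 without single cells, being 4 without LOC 3, 4 or 6 or MOC 5. The cause was not tested. The median difference stayed between -0.13 and 0.03 without single cells. No paralog share moved by more than its SD over cells, but these SDs reached 37.6 points, so this limit shows little. With the length of the median coding transcript, Dync1i1 in LOC went from 52.1% to 31.3% and Kif3b in LOC from 58.3% to 43.9%. The leading paralog of these pairs in LOC therefore depended on the length used. The differences of Klc4, Dync1i1 and Kif19a kept their sign under the alternatives; genes outside the 56 were not rerun. Depth limits single cells to 1.14 to 8.42 CPM. No paired analysis was possible because no result comes from a test and the shared numbers of LOC and MOC cells only name cells.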

Other observations

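The tracks on which the motors run were listed too. Of 23 tubulins and microtubule-associated proteins, all measured, 2 passed the size rule toward LOC and 1 toward MOC, against 6.07% and 5.67% of all measured genes. The list summed to 7409 CPM in LOC against 9452 CPM in MOC. Tuba4a, an alpha tubulin of mature neurons, was at 186 CPM in LOC against 459 CPM in MOC, with a difference of -1.94 and reads in 17 of 18 and in 13 of 13 cells. Dcx, a microtubule-binding protein best known from migrating young neurons, was at 53.1 and 17.6 CPM (difference 1.33), with 48.1% of its LOC reads in LOC 1 and 54.6% of its MOC reads in MOC 13. Stmn4, of the stathmin family that binds tubulin, was at 155 and 69.2 CPM (difference 1.25). The highest per kb were Stmn3, at 522 and 777 CPM per kb, and Tuba1a, at 509 and 616 CPM per kb.

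Axonemal dyneins, which beat motile cilia, had reads in libraries of both groups, which can hold RNA of neighbouring cells. Of 15 listed, 14 were measured, and 1 passed the rule in each direction, against 6.07% and 5.67% of all measured genes. Dnah1 passed toward LOC at 38.8 and 5.06 CPM. Dnai1 passed toward MOC at 6.73 and 28.2 CPM, with 66.7% of its LOC reads in LOC 17 and 39.7% of its MOC reads in MOC 7. MOC 7 also had the most reads of the ciliated-cell markers (90), whereas MOC 13, with 118 Dnai1 reads, had 2. The source of the axonemal reads was not tested.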
